A study of Mus musculus with 12 samples.

Results

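The genes described here are 30 mouse genes that make cholesterol, control that synthesis through the transcription factor SREBP2, or store cholesterol as esters. They were taken by symbol from a written list of pathway members, with no measured value in the rule, and all 30 were found among the 55357 gene identifiers of the 2 RNA-seq count tables. By step, 5 lead to mevalonate and its activated forms, 3 make isoprenoid chains, 3 make and close squalene, 9 turn lanosterol into cholesterol, 6 regulate SREBP2, 1 carries sterols between membranes and 3 form or cleave cholesterol esters. The first 20 of these are enzymes of the synthetic route, and other steps of it were not analysed here. The study asked what esculetin, a plant dihydroxycoumarin, changes in the liver after a short high-fat diet and in macrophages that take up oxidized LDL. Livers came from wild-type male C57BL6/J mice 8 to 9 weeks old, dosed by gavage for 7 days with 2.5% Tween-80 (control) or with esculetin at 90 mg/kg/d. Both liver groups were fed 10% of kcal as fat during the initial 4 days and 60% in the 3 that followed, so no group here stayed on the lower-fat diet, and each liver library pooled 2 mice by the study's description. The cells were RAW264.7, a mouse macrophage line grown in culture, and all of them received fluorescently tagged oxidized LDL (DIL-oxLDL) at 25 ug/mL together with either DMSO (control) or esculetin at 40 ug/mL for 24 h. Each of the 4 groups held 3 libraries. All effects below compare esculetin with control within a tissue.

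Cells build cholesterol from acetyl-CoA through mevalonate, isoprenoid diphosphates, squalene and lanosterol, in the endoplasmic reticulum membrane for most of the route. When that membrane is poor in sterol, the escort protein SCAP carries SREBP2 to the Golgi, where the site-1 and site-2 proteases release its DNA-binding part, which raises transcription of most enzymes of the route. When sterol is plentiful, INSIG proteins hold SCAP in place and the enzymes fall together, while surplus cholesterol is esterified for storage, a step that fills foam cells in the artery wall and feeds lipoprotein assembly in the liver.

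The stretch of 250 bases before the start of the canonical transcript is shown for 4 of the 5 genes with the smallest p in the liver (Hmgcs1, Sqle, Sc5d and Insig1) and for the 2 enzymes with the largest decreases in the cells (Pmvk and Dhcr7). Sequences are of the GRCm39 genome with GENCODE M39 transcripts, written 5′ to 3′ along the gene. Their positions are chr13:120151732-120151981 (plus strand), chr15:59186632-59186881 (plus), chr9:42175606-42175855 (minus), chr5:28276077-28276326 (plus), chr3:89366175-89366424 (plus) and chr7:143383115-143383364 (plus). Capitals mark matches, on either strand, to the sterol regulatory element TCACNCCAC, the CCAAT box of the SREBP partner NF-Y (CCAAT, or ATTGG on the other strand) and the E-box CACGTG, and no 2 different motifs overlapped in any member.
Hmgcs1: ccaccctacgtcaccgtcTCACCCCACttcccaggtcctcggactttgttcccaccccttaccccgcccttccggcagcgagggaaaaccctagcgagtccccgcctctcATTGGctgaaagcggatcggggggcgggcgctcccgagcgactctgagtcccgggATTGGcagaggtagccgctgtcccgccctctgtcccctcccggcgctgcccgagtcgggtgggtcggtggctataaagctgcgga
Sqle: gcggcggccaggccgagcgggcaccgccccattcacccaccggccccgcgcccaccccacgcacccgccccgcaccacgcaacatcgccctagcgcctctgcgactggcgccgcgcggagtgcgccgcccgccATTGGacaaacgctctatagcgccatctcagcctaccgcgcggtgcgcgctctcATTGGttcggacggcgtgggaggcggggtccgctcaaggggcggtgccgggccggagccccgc
Sc5d: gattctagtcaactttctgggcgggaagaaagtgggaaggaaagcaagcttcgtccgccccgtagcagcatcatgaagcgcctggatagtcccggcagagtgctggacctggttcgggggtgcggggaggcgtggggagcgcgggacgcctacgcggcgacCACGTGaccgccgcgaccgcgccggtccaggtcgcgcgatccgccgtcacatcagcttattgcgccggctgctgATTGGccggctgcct
Insig1: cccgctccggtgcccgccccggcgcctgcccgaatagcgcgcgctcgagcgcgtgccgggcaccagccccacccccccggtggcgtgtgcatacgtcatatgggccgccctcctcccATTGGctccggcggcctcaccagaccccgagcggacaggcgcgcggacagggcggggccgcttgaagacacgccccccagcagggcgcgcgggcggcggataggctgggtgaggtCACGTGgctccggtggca
Pmvk: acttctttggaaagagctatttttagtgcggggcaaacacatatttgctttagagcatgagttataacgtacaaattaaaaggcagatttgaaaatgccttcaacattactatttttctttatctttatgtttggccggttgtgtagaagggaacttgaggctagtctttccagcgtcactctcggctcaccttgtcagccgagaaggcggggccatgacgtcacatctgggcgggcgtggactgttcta
Dhcr7: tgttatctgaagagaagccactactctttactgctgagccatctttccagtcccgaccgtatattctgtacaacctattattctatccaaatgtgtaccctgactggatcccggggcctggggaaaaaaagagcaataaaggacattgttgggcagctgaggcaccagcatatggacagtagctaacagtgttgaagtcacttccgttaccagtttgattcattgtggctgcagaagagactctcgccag
The sterol regulatory element in these letters was present in 1 of the 30 member promoters, that of Hmgcs1, against 1.12% of 21757 promoters of the same length. A CCAAT box was present in 19 of 30 against 36.5% of all promoters, and the E-box in 4 of 30 (Hsd17b7, Insig1, Sc5d and Scap) against 6.26%. Hmgcs1 and Sqle each held 2 CCAAT boxes, and the windows shown for Pmvk and Dhcr7 held no match to any of the 3 motifs. Those windows lie inside the annotated genes, which begin farther upstream, at 89361758 and 143376740. The bases before those outer starts were not scanned. The windows of Hmgcs1, Sqle and Insig1 also run past the annotated starts of their genes, at 120151915, 59186869 and 28276315. The motif matches given here are matches of letters only, in a window that is short for these genes.

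Total counts per library ran from 13752842 to 20346460, and values below are counts per 1000000 (CPM) after TMM scaling within a tissue. Liver control replicate 1 had the highest scaling factor, 1.11, against 0.955 to 1.03 in the other 11 libraries. Replicates varied more in the liver (edgeR common biological coefficient of variation 16.5%) than in the cells (11.8%). Hepatocyte markers summed to 103790 to 132360 CPM in the liver libraries and to at most 3.60 CPM in the cells, where 7 of the 10 were at 0 in each group. Macrophage markers, which check the label of the cells, summed to 2539 to 2726 CPM in the control cells and to 5263 to 7871 CPM in the esculetin cells, and 5 of the 9 tested were called higher, beside 28.7% of all genes, with log2 fold changes from 0.31 (Adgre1) to 2.45 (Lyz2). The other 4 were not called, and the lowest was Ptprc at -0.27. Whether this shift had a part in the results for the cells was not tested. In the liver the same list summed to 191 to 232 CPM in control and 186 to 204 CPM in esculetin libraries, the Kupffer cell list to 361 to 417 and 323 to 368 CPM, and the endothelial and stellate list to 292 to 306 and 243 to 283 CPM. By gene, 8 of 9 macrophage and 7 of 8 Kupffer cell markers tested in the liver had log2 fold changes below 0, beside 53.5% of all genes, with Cd68 at -0.50, Csf1r at -0.28 and Marco at -0.77, and 0 of them were called (edgeR adjusted p = 0.456, 0.536 and 0.364). At an unadjusted p under 0.05 there were 2 of 9 and 3 of 8, all lower, beside 4.98% of all genes lower and 8.37% in either direction. The macrophage and Kupffer cell lists share Csf1r, Adgre1 and Cd68, so their counts are not independent. The part of these cells in the liver results was not tested. Cholangiocyte markers summed to 33.4 to 37.2 and 29.6 to 35.3 CPM in the liver and lymphocyte markers to 3.45 to 4.20 and 2.13 to 3.82 CPM. In the cells, 4 of the 5 cholangiocyte markers held 3 counts or fewer per library, and the rest of that list was Spp1, which macrophages also express, at 843 ± 65.6 CPM in control and 7322 ± 2470.4 CPM in esculetin cells. In bulk tissue, fewer cells of a type and less RNA per cell cannot be told apart. The p-values measure the spread between these libraries, and nothing given here says whether the cell replicates were separate cultures.

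In the oxLDL-treated cells, 25 of the 30 genes were called, that is, had an edgeR quasi-likelihood adjusted p under 0.05, or 83.3%, beside 57.7% of all 13277 genes tested. Of these, 14 were lower with esculetin (29.0% of all genes were lower) and 11 were higher (28.7% of all genes). The pathway did not move as a block. Among the 20 enzymes 11 fell and 5 rose (Ggps1, Sqle, Cyp51, Hsd17b7 and Sc5d), with a median log2 fold change of -0.50, against -0.01 over all genes tested. Srebf2 itself fell while Scap, Insig2 and both site proteases rose. The libraries of the 2 groups did not overlap for 14 genes that were lower and 12 that were higher, beside 33.1% and 31.0% of all genes.

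**Figure D1:**
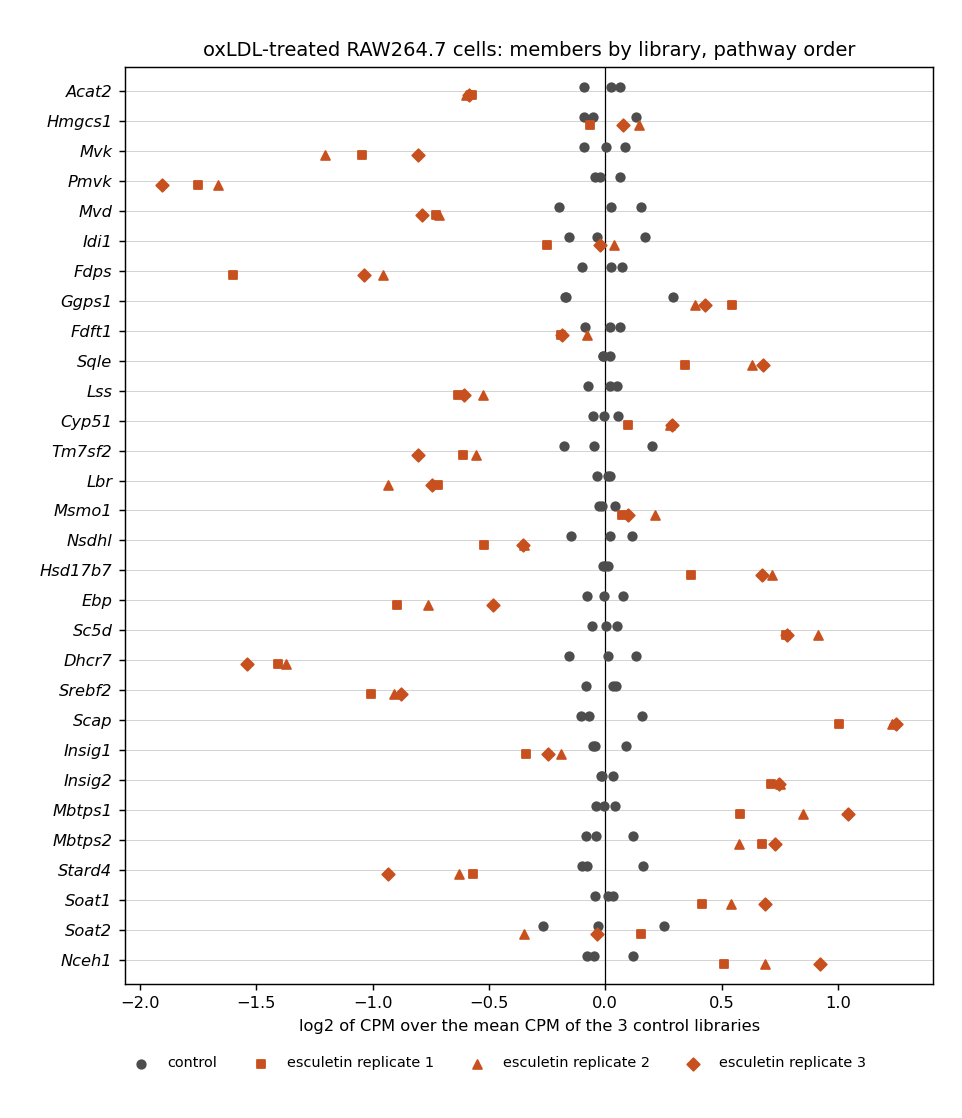
Values of the 30 genes in each RAW264.7 library, as log2 of CPM over the mean CPM of the 3 control libraries, in pathway order from top to bottom. Grey circles are control libraries and orange squares, triangles and diamonds are esculetin replicates 1, 2 and 3. The esculetin libraries of Pmvk and Dhcr7 lie farthest to the left and those of Scap farthest to the right.

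In the mevalonate steps, 4 of 5 genes fell in the cells, beside 29.0% of all genes tested. Pmvk, the kinase that phosphorylates mevalonate phosphate (chromosome 3, 89361758 to 89376323, GRCm39), had the largest decrease of all 30 genes. Its level was 84.6, 90.1 and 83.6 CPM in the control libraries and 25.6, 27.2 and 23.0 CPM in the esculetin libraries. All 3 esculetin libraries were far below all controls, a 3.41-fold decrease (log2 fold change -1.77, SE 0.10, edgeR adjusted p = 1.55e-07). Mvk, mevalonate kinase (chromosome 5, 114582267 to 114601803), was at 29.1, 32.8 and 31.0 CPM in control and at 15.0, 13.4 and 17.7 CPM in esculetin libraries. The groups did not overlap, and the level was 2.01-fold lower (log2 fold change -1.0, SE 0.13, edgeR adjusted p = 5.16e-05). Mvd, the decarboxylase that yields isopentenyl diphosphate, fell from 166 ± 19.9 to 99.1 ± 2.68 CPM (SD, n = 3), with an edgeR adjusted p of 6.76e-05. Acat2, the thiolase that joins acetyl-CoA units, fell from 57.9 ± 3.23 to 38.6 ± 0.319 CPM (edgeR adjusted p = 0.000196). Its transcript matches Acat3 at 97.7% identity over 1477 bases, so its count is uncertain. Hmgcs1, which makes HMG-CoA from the product of that thiolase, was not called. It was at 139.8, 119.9 and 123 CPM in control and 122, 141 and 135 CPM in esculetin libraries, so the libraries of the groups were interleaved (log2 fold change 0.05, SE 0.09, edgeR adjusted p = 0.635).

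The isoprenoid and squalene steps went both ways in the cells. Fdps, farnesyl diphosphate synthase, was at 10.4, 11.7 and 11.3 CPM in control and 3.66, 5.73 and 5.41 CPM in esculetin libraries, 200 to 232 and 50 to 97 reads. Every esculetin library was below every control (log2 fold change -1.16, SE 0.18, edgeR adjusted p = 0.000250). This count is uncertain, because 4 processed pseudogenes match the transcript at 96.1% to 98.9% identity over 605 to 1066 bases. Ggps1, which makes the longer geranylgeranyl diphosphate, rose from 23.8 ± 4.61 to 32.6 ± 1.90 CPM (edgeR adjusted p = 0.0151), and that call was lost without control replicate 2 or control replicate 3, at an edgeR adjusted p of up to 0.0611. Idi1, the isopentenyl diphosphate isomerase, was at 51.8 ± 5.97 and 49.3 ± 5.03 CPM and was not called (edgeR adjusted p = 0.607). Both genes also have a pseudogene copy over 95% identical. Sqle, squalene epoxidase, a rate-limiting step (chromosome 15, 59186869 to 59203043), was at 215, 219 and 215 CPM in control and 274, 335 and 345 CPM in esculetin libraries. All 3 esculetin libraries stood above the tightly grouped controls (log2 fold change 0.56, SE 0.10, edgeR adjusted p = 0.000455). The next enzyme, Lss, which closes the ring to lanosterol, moved the other way, from 224 ± 10.1 to 149 ± 6.03 CPM (edgeR adjusted p = 8.30e-05). Fdft1, squalene synthase, was at 106 ± 5.64 and 95.8 ± 4.20 CPM (edgeR adjusted p = 0.140), and a pseudogene copy and an overlap of 24.8% of its exon bases with Ctsb make its count uncertain.

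Of the 9 genes from lanosterol to cholesterol, 5 fell and 3 rose in the cells, beside 29.0% and 28.7% of all genes tested. The number that rose was thus near the share of all genes. Dhcr7, the reductase that makes cholesterol itself (chromosome 7, 143376740 to 143402149), was at 100.5, 113 and 122 CPM in control and 42.2, 43.2 and 38.4 CPM in esculetin libraries. It was lower in all 3 esculetin libraries, 2.71-fold on average (log2 fold change -1.44, SE 0.10, edgeR adjusted p = 7.20e-07). Sc5d, the desaturase that supplies the substrate of Dhcr7 (chromosome 9, 42162891 to 42175605), was at 73.1, 70.7 and 67.8 CPM in control and 121, 133 and 121 CPM in esculetin libraries. These successive enzymes thus moved in opposite directions, Sc5d being 1.77-fold higher (log2 fold change 0.82, SE 0.08, edgeR adjusted p = 9.85e-06). Hsd17b7, a ketosteroid reductase of the demethylation steps, was at 73.4, 74.0 and 74.5 CPM in control and 95.6, 122 and 118 CPM in esculetin libraries, again without overlap (log2 fold change 0.60, SE 0.10, edgeR adjusted p = 0.000379). Ebp, the sterol isomerase, fell from 29.8 ± 1.60 to 18.3 ± 2.74 CPM and Nsdhl, the decarboxylating dehydrogenase, from 76.2 ± 6.95 to 57.5 ± 3.83 CPM, with edgeR adjusted p of 0.000693 and 0.00387. Cyp51, the lanosterol demethylase, rose slightly (log2 fold change 0.22, SE 0.08, edgeR adjusted p = 0.0381), but that call was lost in 7 of 14 alternative settings, among them without control replicate 1, 2 or 3 and without esculetin replicate 2 or 3 (adjusted p up to 0.176), and 28.3% of its exon bases lie under genes of the opposite strand such as Akap9. Msmo1, the methylsterol oxidase, was not called at 243 ± 6.06 and 265 ± 14.3 CPM (edgeR adjusted p = 0.183), although its libraries did not overlap.

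The 6 regulators of SREBP2 were all called in the cells, 2 lower and 4 higher, beside 29.0% and 28.7% of all genes tested. The number that fell was thus near the share of all genes. Srebf2, the gene for SREBP2 (chromosome 15, 82031382 to 82093201), was at 651, 706 and 711 CPM in control and 343, 367 and 376 CPM in esculetin libraries. It was 1.91-fold lower with no overlap (log2 fold change -0.93, SE 0.08, edgeR adjusted p = 4.31e-06). Scap, the sterol-sensing escort (chromosome 9, 110158229 to 110214024), was at 27.3, 26.6 and 31.9 CPM in control and 57.4, 67.2 and 68.1 CPM in esculetin libraries. This 2.25-fold rise was the largest increase among the 30 genes (log2 fold change 1.17, SE 0.11, edgeR adjusted p = 6.33e-06). Mbtps1, the site-1 protease, was at 98.1, 104 and 101 CPM in control and 151, 182 and 208 CPM in esculetin libraries, with every esculetin library above every control (log2 fold change 0.84, SE 0.11, edgeR adjusted p = 7.20e-05). Mbtps2, the site-2 protease, rose from 55.9 ± 4.22 to 88.3 ± 4.78 CPM (edgeR adjusted p = 8.86e-05), although 23.5% of its exon bases are shared with Yy2 on the same strand. Stard4, a soluble sterol carrier and itself an SREBP2 target, fell from 171 ± 17.6 to 105 ± 13.6 CPM (edgeR adjusted p = 0.000264). Nceh1, a hydrolase that frees cholesterol from its esters, was at 52.6, 46.8 and 45.9 CPM in control and 68.9, 78.1 and 91.9 CPM in esculetin libraries. It rose with no overlap between the groups (log2 fold change 0.72, SE 0.11, edgeR adjusted p = 0.000246).

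In the liver, no member was called: 0 of 30 at an edgeR adjusted p under 0.05, beside 0.0859% of all 12813 genes tested (11 genes), with adjusted p-values from 0.478 upward. At an unadjusted p under 0.05 there were 5 of 30, all lower, beside 4.98% of all genes lower and 8.37% in either direction. DESeq2 and limma-voom also called 0, with 4 and 5 at an unadjusted p under 0.05. By limma-voom at an unadjusted p under 0.05 and a fold change over 1.5, 2 of 30 passed, both lower, beside 3.89% of all genes, and in the cells 18 of 30 passed, beside 38.0%. With no filter on low counts edgeR called 4 members lower (Hmgcs1, Sqle, Sc5d and Insig1, edgeR adjusted p from 0.00133 to 0.0350, and up to 0.994 over the other alternatives), among 339 of 22343 genes called. The fold changes were below 0 for 25 of 30 genes and for 19 of the 20 enzymes, while 53.5% of all genes were below 0. Among the enzymes Mvk was the exception, at 0.32 (SE 0.19). Over 14 alternatives the number of the 30 genes below 0 ran from 22 to 26. The median was -0.19 over the 30 genes and -0.26 over the enzymes, against -0.02 over all genes. No member had groups that did not overlap, a state seen for 7.95% (lower) and 6.52% (higher) of all genes.

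The 3 esculetin livers differed in how many members were low. Esculetin replicate 1 was below every control library for 21 of 30 genes, beside 22.8% of all genes, and esculetin replicate 3 for 17 of 30, beside 24.7%. Esculetin replicate 2 was below every control for 3 of 30, beside 22.0%, and above every control for 6, beside 19.6%. Relative to the control mean, the median over the 20 enzymes on the log2 scale was -0.66 in esculetin replicate 1, 0.12 in replicate 2 and -0.31 in replicate 3, and -0.03, 0.08 and -0.08 in the control libraries. Hepatocyte marker sums in the same esculetin libraries were 103790, 129510 and 117750 CPM, and their part in this order was not tested. Leaving out esculetin replicate 2 moved the median fold change of the 30 genes from -0.19 to -0.41 and gave 15 genes at an unadjusted p under 0.05, beside 6.69% of all genes in that fit, with 0 called. Leaving out esculetin replicate 1 moved that median to -0.06, with 1 gene at an unadjusted p under 0.05 beside 5.90% of all genes, and leaving out control replicate 2 moved it to -0.11, also with 1, beside 7.39%.

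**Figure D2:**
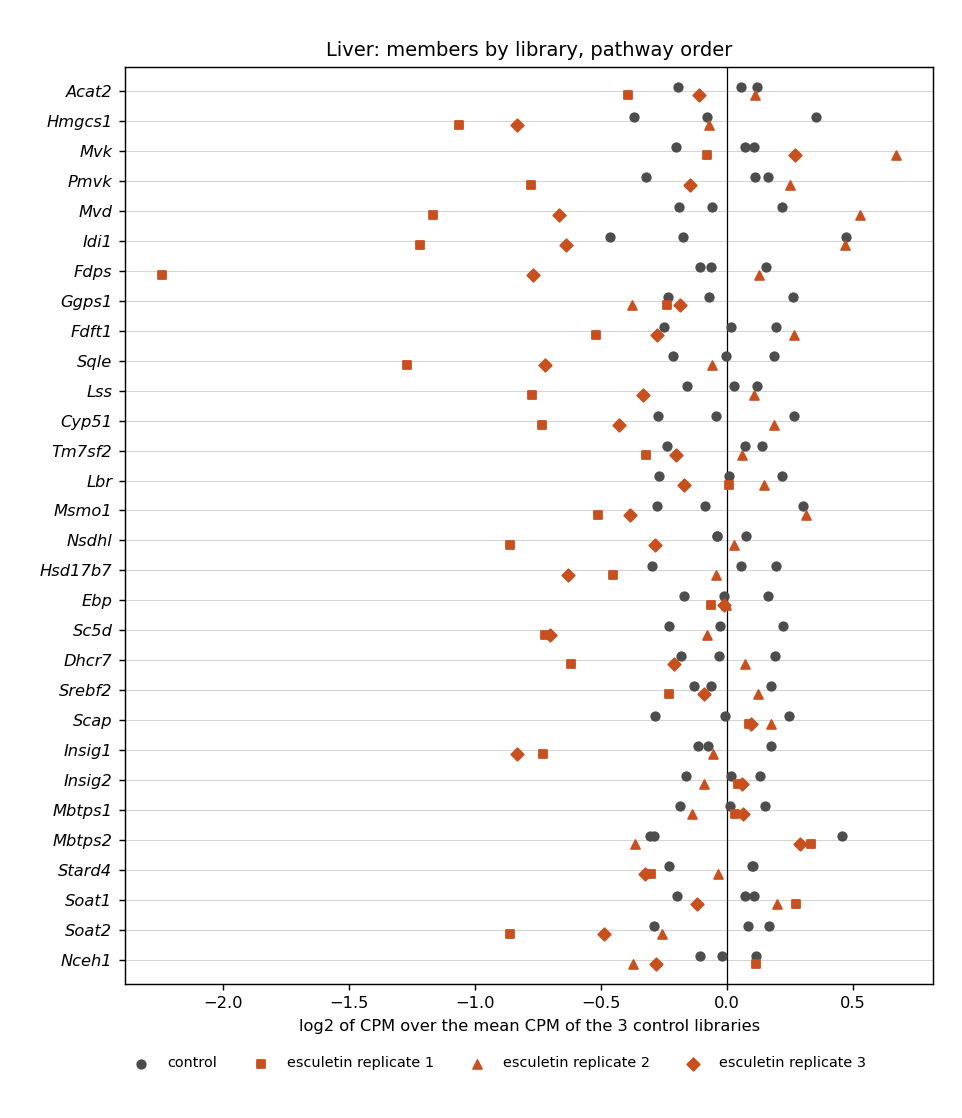
Values of the 30 genes in each liver library, as log2 of CPM over the mean CPM of the 3 control libraries, in pathway order from top to bottom. Grey circles are control libraries and orange squares, triangles and diamonds are esculetin replicates 1, 2 and 3. Squares lie to the left of every control for 21 genes and diamonds for 17, whereas triangles do so for 3.

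The 5 genes with the smallest p in the liver include enzymes of the start, middle and end of the route, a regulator and an esterifying enzyme. Hmgcs1 (chromosome 13, 120151915 to 120170470), whose window above holds a match to the letters of the sterol regulatory element, was at 211, 156 and 127 CPM in control and 78.9, 157 and 92.3 CPM in esculetin livers. Replicates 1 and 3 were below all controls and replicate 2 was inside their range (log2 fold change -0.59, SE 0.24, edgeR adjusted p = 0.537). Sqle was at 39.6, 45.1 and 34.2 CPM in control and 16.5, 38.0 and 24.0 CPM in esculetin livers. The same 2 libraries were low (log2 fold change -0.60, SE 0.24, edgeR adjusted p = 0.525). Sc5d was at 475, 400.4 and 348 CPM in control and 247, 386 and 250.5 CPM in esculetin livers, with replicate 2 inside the control range and the other esculetin values below it (log2 fold change -0.47, SE 0.18, edgeR adjusted p = 0.517). Insig1 (chromosome 5, 28276315 to 28283668), which retains SCAP and is a classical SREBP target, was at 244, 290.0 and 237 CPM in control and 155, 248 and 144 CPM in esculetin livers. Replicate 2 was again within the controls and the others below (log2 fold change -0.50, SE 0.19, edgeR adjusted p = 0.511). Soat2, the hepatocyte enzyme that esterifies cholesterol (chromosome 15, 102058797 to 102071904), was at 21.4, 22.6 and 16.5 CPM in control and 11.1, 16.9 and 14.4 CPM in esculetin livers. All but replicate 2 were below every control (log2 fold change -0.52, SE 0.18, edgeR adjusted p = 0.478).

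Mvd, Idi1, Fdps and Hsd17b7 were each highest in replicate 2 among the esculetin livers. Mvd was at 22.0, 24.0 and 29.1 CPM in control and 11.2, 36.2 and 15.8 CPM in esculetin livers, so replicate 2 was the highest and replicate 1 the lowest of all 6. Idi1 was at 30.6, 19.5 and 16.0 CPM in control and 9.48, 30.5 and 14.2 CPM in esculetin livers. Fdps, at 37 to 45 reads per control library, had 9, 39 and 21 reads in the esculetin livers, where only replicate 2 reached the control range. Hsd17b7 was at 44.2, 40.1 and 31.3 CPM in control and 28.2, 37.4 and 24.9 CPM in esculetin livers, and esculetin replicates 1 and 3 were again below all controls (log2 fold change -0.35, SE 0.17, edgeR adjusted p = 0.627). Mvk, the enzyme on the other side of 0, was at 16.2, 19.5 and 20.0 CPM in control and 17.6, 29.6 and 22.4 CPM in esculetin livers, with replicates 2 and 3 above all controls (edgeR adjusted p = 0.668). Pmvk and Dhcr7, the enzymes that fell most in the cells, had liver fold changes of -0.17 (SE 0.22) and -0.23 (SE 0.17), and Srebf2 and Scap had -0.06 (SE 0.13) and 0.12 (SE 0.14), the sign of Scap turning without control replicate 1 and that of Srebf2 without control replicate 2 or esculetin replicate 1. Mbtps1 was at 58.0, 73.2 and 66.6 CPM in control and 67.4, 59.9 and 69.0 CPM in esculetin livers, and Nceh1 at 17.0, 19.7 and 18.0 CPM and 19.7, 14.1 and 15.0 CPM, both with overlapping groups.

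The effect of esculetin was then compared between the tissues in one edgeR model over all 12 libraries, as the log2 fold change in the cells minus that in the liver. The tissues also differ in dose, route, time and lipid load, which cannot be told apart from tissue here. This difference was called for 16 of 30 genes, or 53.3%, beside 27.1% of all 15709 genes tested. For 7 genes the cells lay above the liver (13.4% of all genes) and for 9 below (13.7%). Sqle, Sc5d and Hsd17b7 rose in the cells and had liver values below 0, with differences of 1.12 (SE 0.28, edgeR adjusted p = 0.00772), 1.25 (SE 0.22, adjusted p = 0.000608) and 0.91 (SE 0.21, adjusted p = 0.00475). Mvk had the opposite arrangement, a difference of -1.36 (SE 0.24, edgeR adjusted p = 0.000578). Mbtps1 and Nceh1 also had opposite signs, with differences of 0.81 and 0.84, although the liver sign of Mbtps1 turned without control replicate 2 or esculetin replicate 2. In each of these genes the liver effect alone was not called. The widest differences below 0 belonged to Pmvk (-1.64, SE 0.27, edgeR adjusted p = 0.000326), followed by Mvk, Dhcr7 (-1.25, SE 0.21, adjusted p = 0.000409) and Srebf2 (-0.91, SE 0.16, adjusted p = 0.000525). Hmgcs1, whose window matched the letters of the sterol regulatory element, had a difference of 0.61 (SE 0.29). This difference was not called (edgeR adjusted p = 0.142). Without liver esculetin replicate 2 it was 1.01 and without liver control replicate 3 it was 0.82, and called in both. The differences of Cyp51 (0.46) and Insig1 (0.20) were also called without liver esculetin replicate 2, at 0.81 and 0.53, and that of Ggps1 (0.68) without liver control replicate 3 or cells control replicate 1, at 0.83 in each. The Ggps1 difference was also called with upper quartile scaling (0.72, edgeR adjusted p = 0.0450), by DESeq2 (0.69, adjusted p = 0.0395) and with the replicate block (0.69, edgeR adjusted p = 0.0483). With the block Cyp51 was called too (0.49, edgeR adjusted p = 0.0449), as was Hmgcs1 with no filter on low counts (0.60, edgeR adjusted p = 0.0117).

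**Figure D3:**
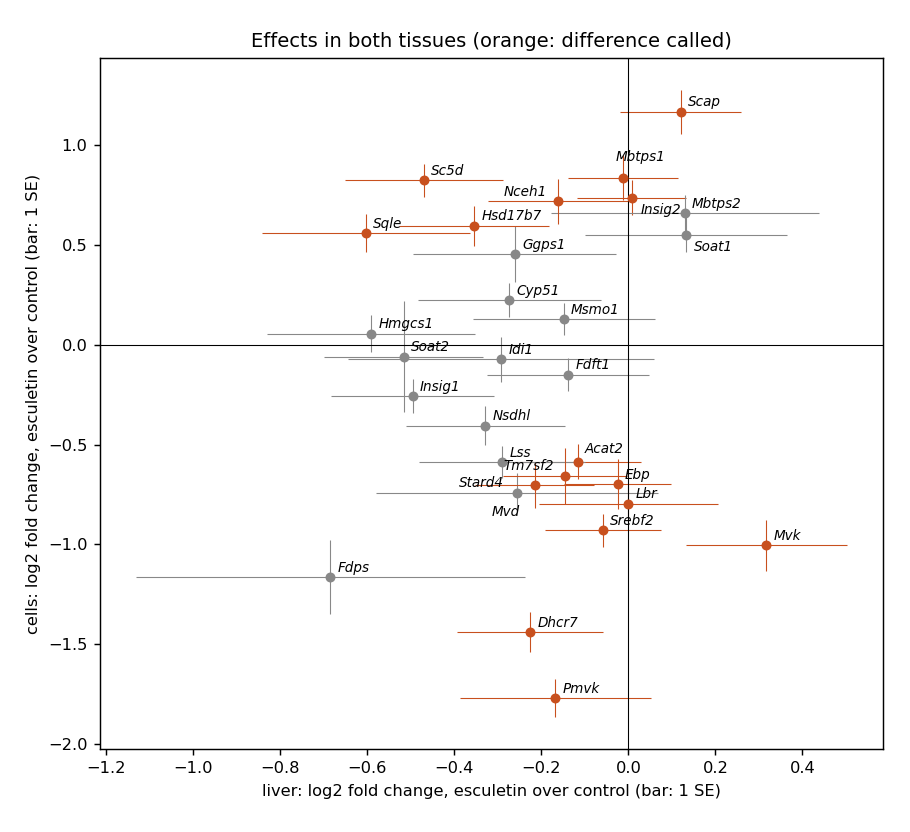
Log2 fold change of each of the 30 genes with esculetin in the liver (horizontal axis) and in the oxLDL-treated cells (vertical axis), with bars of 1 standard error. Orange points are the 16 genes whose difference between the tissues was called and grey points the other 14. Points cover a range of -1.77 to 1.17 on the vertical axis and of -0.68 to 0.32 on the horizontal axis.

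Pairs of genes with a shared role differed in which member each tissue used and in how it moved. Shares below are of CPM per kilobase of merged exons within a library, so they do not depend on the separate scaling of the tissues. Insig1 and Insig2 both retain SCAP, but Insig1 is a strong SREBP target. In the cells Insig1 was at 119, 108 and 108 CPM in control and 88.0, 97.9 and 94.1 CPM in esculetin libraries. Every esculetin library was lower (log2 fold change -0.26, SE 0.08, edgeR adjusted p = 0.0217), and the call was lost without control replicate 3 or esculetin replicate 1 (adjusted p up to 0.0562). Insig2 went from 34.5, 35.7 and 34.4 CPM to 57.1, 58.6 and 58.5 CPM, 1.67-fold higher with no overlap (log2 fold change 0.74, SE 0.09, edgeR adjusted p = 2.97e-05). The share of Insig1 in the pair was 79.5% ± 1.08 in control and 66.1% ± 0.890 in esculetin cells (SD, n = 3). In the liver, where Insig2 was at 534, 435 and 493 CPM in control and 503, 458 and 508 CPM in esculetin libraries, the share of Insig1 was 39.1% ± 4.93 and 30.8% ± 7.66, with overlapping libraries. Divided by the length of the canonical transcript instead, the shares were 76.5% and 62.1% in the cells and 35.0% and 27.3% in the liver.

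Soat1 and Soat2, the acyltransferases that esterify cholesterol, divided almost fully by tissue. Soat1, the macrophage form, made up 97.2% ± 0.449 of the pair in control cells and 3.83% ± 0.976 in control livers. It rose in the cells, from 347, 343 and 329 CPM to 453, 494 and 547 CPM, without overlap (log2 fold change 0.55, SE 0.09, edgeR adjusted p = 0.000281). In the liver it was at 3.69, 3.06 and 3.79 CPM in control and 4.25, 4.03 and 3.24 CPM in esculetin libraries, which overlapped. Soat2 in the cells was near the lower end of what was tested, at 2.13, 2.58 and 1.80 CPM and 2.42, 1.70 and 2.12 CPM, or 25 to 48 reads per library. Lbr and Tm7sf2 both code for sterol reductases of the same step, and Lbr also anchors chromatin to the nuclear envelope. Lbr was 72.6% ± 3.05 of that pair in control cells and 1.01% ± 0.227 in control livers. Both fell in the cells, Lbr from 117, 116 and 112 CPM to 69.9, 60.2 and 68.8 CPM (log2 fold change -0.80, SE 0.09, edgeR adjusted p = 1.74e-05). Tm7sf2 went from 17.7, 16.2 and 21.1 CPM to 12.0, 12.5 and 10.5 CPM (log2 fold change -0.66, SE 0.14, edgeR adjusted p = 0.00189), and the share of Lbr stayed within its spread at 70.5% ± 3.22. In the liver, Lbr was at 5.71, 6.61 and 4.72 CPM and 5.72, 6.30 and 5.05 CPM. Tm7sf2 was there at 201, 249 and 262 CPM and 190.2, 247 and 206 CPM, and the groups of both genes overlapped. Divided by the length of the canonical transcript, the share of Lbr was 64.6% in control cells and 0.698% in control livers. That of Soat1 was 97.8% and 4.82%. Tm7sf2 shares 10.8% of its exon bases with Vps51 on the same strand.

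**Figure D4:**
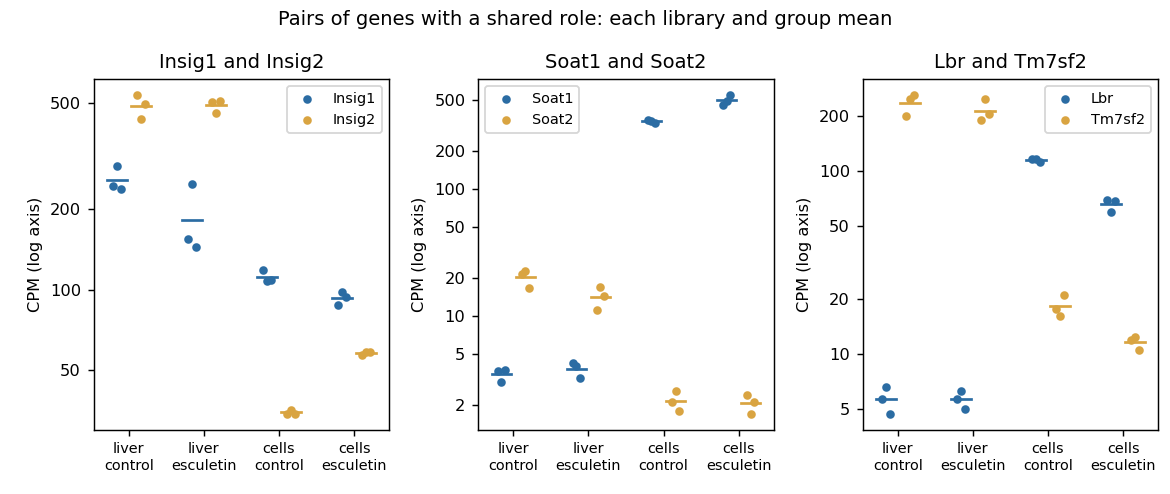
CPM on a log axis of Insig1 and Insig2, Soat1 and Soat2, and Lbr and Tm7sf2 in each library of the 4 groups, with a horizontal bar at the group mean. CPM were scaled within each tissue. Soat1 and Lbr are the higher members in the cells and the lower ones in the liver, and Insig2 rises towards Insig1 in the esculetin cells.

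Across all members, levels per kilobase of merged exons were highest in control livers for Insig2 (82.2 ± 8.38 CPM per kb) and Ebp (72.2 ± 8.32), neighbours that lay within their spread. In control cells Srebf2 came first (73.8 ± 3.57 CPM per kb), followed by Mvd (60.7 ± 7.30). With the length of the canonical transcript the first place was the same in both. In esculetin cells the order depended on that length, with Soat1 first by merged exons (46.6 ± 4.39 CPM per kb) and Sqle first by the canonical transcript (113 ± 13.6).

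Genes that feed, use or share the control of this route were counted from 5 further lists. In the cells 28.7% of all genes tested were called higher and 29.0% lower, 57.7% in all, and each count below stands beside those shares. Of 5 genes of acetyl-CoA supply, 3 fell in the cells and 0 rose, so the number called was near the share of all genes. They were Acat1, a mitochondrial thiolase (log2 fold change -0.95), Acss2, which makes acetyl-CoA from acetate (-1.20), and the citrate carrier Slc25a1 (-0.65). Of 16 genes of isoprenoid use, 5 rose and 5 fell, in each direction near the share of all genes, among them the prelamin protease Zmpste24 (0.98), the dolichol synthesis subunit Nus1 (0.54), the farnesyltransferase subunit Fntb (-1.21) and the tRNA isopentenyltransferase Trit1 (-0.98). Of 14 genes of sterol-regulated degradation in the endoplasmic reticulum, 7 rose and 2 fell. The membrane scaffolds Erlin1 and Erlin2 rose (0.65 and 1.06), while the ligase Rnf145 and the ubiquitin-conjugating enzyme Ube2g2 fell (-0.92 and -0.78). Of 15 genes of intracellular cholesterol transport, 5 rose and 8 fell, with Stard3 at 0.69 and the HDL receptor Scarb1, the carrier Stard5 and the sterol-binding Tmem97 at -1.01, -1.79 and -0.71. Of 14 genes listed as other SREBP targets, 13 were tested in the cells (Pnpla3 was not), and 9 fell while 0 rose. Among those that fell were the fatty acid enzymes Acaca (-1.01), Scd1 (-1.31) and Scd2 (-0.91) and the phosphatase Lpin1 (-0.96). Each value named in this paragraph had an edgeR adjusted p of at most 0.000215 over all genes tested.

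In the liver 0 genes of those 5 lists were called by edgeR. At an unadjusted p under 0.05 there were 0 of 5 for acetyl-CoA supply, 2 of 16 for isoprenoid use, 3 of 14 for sterol-regulated degradation, 2 of 15 for cholesterol transport and 11 of 14 for the other SREBP targets, which are mostly fatty acid genes, beside 8.37% of all genes. Of those 11, 9 were lower in esculetin livers and 2 higher. The higher ones were Lpin1, at a log2 fold change of 0.55, and Mylip, at 0.39 (edgeR adjusted p = 0.458 and 0.559). Mylip is a ligase that marks the LDL receptor for degradation. Its control by SREBP is not established here, so its value is not read as that of an SREBP target. The desaturase Scd1 went from 9523 ± 829 to 4493 ± 1114 CPM in the liver (log2 fold change -1.08, SE 0.18, edgeR adjusted p = 0.0527). Malic enzyme Me1, the elongase Elovl5 and fatty acid synthase Fasn had log2 fold changes of -0.74, -0.81 and -0.70 there, with edgeR adjusted p of 0.0839, 0.165 and 0.310.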

How the data were processed

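Total RNA of livers and RAW264.7 cells was sequenced as NEBNext Ultra libraries. The authors aligned reads with HISAT2 2.2.1 to GRCm39 and counted them per gene with featureCounts, and deposited raw read counts, 1 table per tissue. The mm10 build in the submitters' notes was, by the study's methods, for its ATAC-seq and ChIP-seq reads, and neither the annotation release nor a strand setting is given in the sources used here. Identifiers were matched to GENCODE M39 (54749 matched, 608 not). Genes passing filterByExpr were tested per tissue in edgeR 4.0.16 (R 4.3.3; TMM, quasi-likelihood, treatment only), with Benjamini-Hochberg adjustment over all genes of a table and a threshold of 0.05. The difference between tissues was fitted over all 12 libraries with 4 groups. SE of log2 fold changes came from the quasi-likelihood F, and CPM used TMM factors per tissue. DESeq2 1.42.0, limma-voom 3.58.1, other scalings, other filters, a replicate block and each library left out were alternatives. The scripts were tested on simulated data. Near copies were sought with blastn 2.17.0 at 95% identity over 500 bases.

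Genes, further lists and markers were chosen with earlier results of these data known, and 1 gene of a further list is not reported here. Every member is described. Values per library are given for members called with an absolute log2 fold change of at least 1, for the 5 smallest p per tissue, for called differences of opposite sign and for the 3 pairs. The 4 smallest p of each further list and comparison bounded the other genes named, and Hmgcs1 in the cells, Mvd and Idi1 in the liver, Csf1r, Lyz2 and Spp1 got values after these were seen. Counting error alone sets a lower limit to the precision of genes with few reads.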

Additional observations from a re-analysis of the deposited data

Results flagged for a closer look

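The response to esculetin differed between the cells and the liver for 16 of the 30 genes, beside 27.1% of all 15709 genes tested. The edgeR test was of the difference itself over all 12 libraries. Dose, route, time and lipid load cannot be told apart from tissue in it. The log2 fold change in the cells minus that in the liver was above 0 for Sqle (1.12), Hsd17b7 (0.91), Sc5d (1.25), Scap (1.0), Insig2 (0.69), Mbtps1 (0.81) and Nceh1 (0.84). It was below 0 for Acat2 (-0.51), Mvk (-1.36), Pmvk (-1.64), Tm7sf2 (-0.55), Lbr (-0.83), Ebp (-0.71), Dhcr7 (-1.25), Srebf2 (-0.91) and Stard4 (-0.53). In 13 of these 16 genes the call and its direction were the same in all 20 alternatives. Acat2, Tm7sf2 and Stard4 lost the call in 15, 15 and 14 of the 20, with edgeR, DESeq2 or limma-voom adjusted p of up to 0.207, 0.202 and 0.197. No group held enough libraries for a test of outlying samples.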

How the results depend on the processing

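Over 14 alternatives in the liver, members called stayed at 0 except with no filter on low counts. There 4 were called over 22343 genes (Hmgcs1, Sqle, Sc5d and Insig1, edgeR adjusted p = 0.00133, 0.00498, 0.0350 and 0.0190). The study's thresholds, an unadjusted p under 0.05 and a 1.5-fold change, were also applied to limma-voom. They took 2 members in the liver, beside 3.89% of all genes. In the cells they took 18, with 7 higher and 11 lower, beside 38.0%. The study names limma without voom, and it reported fewer genes in the cells than the 5041 that passed here. All genes called by adjusted p in the liver went from 11 to 339 with no filter, 123 with the replicate block and 98 with DESeq2. The liver median ranged from -0.41 (without esculetin replicate 2) to -0.059 when each library was left out, and calls stayed at 0. In the cells calls ranged from 22 to 24 and the median from -0.16 (without esculetin replicate 2) to -0.11 in the same way, the median was -0.18 with library size only, and 22 of the 25 called genes kept call and direction in every alternative (not Cyp51, Ggps1 or Insig1). Calls of the difference ranged from 13 to 16. Whether replicate numbers mark a pairing could not be decided with 3 libraries per group. To look at this, the group mean of each gene was subtracted from its log2 CPM, and the remainders were correlated over genes. The remainders of same-numbered control and esculetin libraries correlated at 0.14, -0.0053 and 0.10 in the liver. In the cells they correlated at 0.16, -0.030 and 0.080. Among control and esculetin libraries with different numbers, the extremes for the liver were -0.15 and 0.089. Those for the cells were -0.17 and 0.11. The replicate block gave 0, 25 and 18 members called in liver, cells and difference.

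Liver signs that turned with other scalings, filters, tools or the replicate block were those of small values. Lbr was at 0.0065 with RLE size factors, 0.0063 with DESeq2, 0.0018 with limma-voom and 0.0073 with the replicate block, and Insig2 at -0.064 with library size only and -0.011 with a minimum of 1 CPM in 3 libraries. In the cells Hmgcs1 was at -0.012 with library size only. Leaving a library out also turned liver values farther from 0, such as those of Idi1 (-0.29 in the main fit) and Mvd (-0.26). With each library left out, liver values ranged from -0.91 to 0.017 for Idi1, -0.13 to 0.13 for Lbr, -7.23e-05 to 0.26 for Scap, -0.46 to 0.031 for Msmo1, -0.17 to 0.037 for Srebf2, -0.068 to 0.082 for Insig2, -0.092 to 0.070 for Mbtps1, -0.099 to 0.046 for Ebp, -0.018 to 0.43 for Mbtps2, -0.44 to 0.054 for Pmvk, -0.91 to 0.040 for Mvd and -0.40 to 0.0088 for Fdft1. In the cells they ranged from -0.14 to 0.016 for Idi1 and -0.17 to 0.089 for Soat2. Differences ranged from -0.070 to 0.84 for Idi1, -0.15 to 0.26 for Fdft1, -0.77 to 0.17 for Mvd, -0.89 to 0.21 for Fdps and -0.26 to 0.16 for Nsdhl. Why the filter moved the liver calls was not tested.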
